A study of Homo sapiens with 36 samples.

Results

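The 10 genes described here encode secreted or receptor proteins that act on blood vessels and were followed in 2 human colorectal cancer cell lines treated with chemical activators of the hypoxia response. They were VEGFA, VEGFB, VEGFC, PGF, ANGPTL4, ADM, EDN1, PDGFA, PDGFB and PDGFRB, chosen by symbol, and all 10 were found among the 60591 rows of the deposited mRNA count table. Poly(A) RNA was sequenced in 18 libraries that fell into 6 groups of 3 replicates, formed by cell line (Caco-2 or HT-29) and treatment (control, CoCl2 or OD). Caco-2 is an adenocarcinoma line that forms an enterocyte-like layer and had here been differentiated for 21 days, whereas HT-29 is a colorectal carcinoma line grown without that step, so cell line and culture state cannot be told apart. Both lines are tumour cells, and each is a single established line. CoCl2, a cobalt salt, was given at 300 µM, and OD, an oxyquinoline derivative labelled Oxy in the sample descriptions and known by a supplier's code, was given at 5 µM, each for 24 h. Control cells received DMSO. The labels and the study's methods do not give the same solvent for the CoCl2 cultures, so solvent and CoCl2 cannot be fully told apart. The study's methods, written for Caco-2, call the replicates biological; for HT-29 the p-values measure only the spread between the 3 samples of a group, which may be technical.

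Hypoxia-inducible factor (HIF) is a transcription factor whose alpha subunit is marked for destruction by oxygen-dependent prolyl hydroxylases. Cobalt ions and small molecules that inhibit these enzymes let HIF accumulate in normal oxygen, which is called chemical hypoxia. Low oxygen makes epithelial and tumour cells secrete factors that call in vessels. Of the members, not all of which are such factors, VEGFA, VEGFB and PGF are ligands of the receptor FLT1. VEGFA acts mainly through KDR, and VEGFC acts on lymphatic endothelium through FLT4. Adrenomedullin (ADM) widens vessels, endothelin 1 (EDN1) narrows them, and ANGPTL4 inhibits lipoprotein lipase and affects vessel permeability. The PDGF chains A and B recruit mesenchymal cells. PDGFRB is a PDGF receptor known from fibroblasts and pericytes.

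Total counts per library ran from 12925719 to 22332639. Levels are given in CPM, a gene's count relative to the size of its library, with sizes corrected per line by edgeR's TMM factors; a level with ± is a mean with its SD (n = 3), and a log2 fold change with ± carries its SE. A call, higher or lower, was made when a gene's FDR in edgeR's quasi-likelihood test, adjusted by Benjamini-Hochberg over all genes tested, was below 0.05 and the log2 fold change lay above 1 or below -1, called here the fold limit. "Rose" and "fell" are used only for genes that met both limits. After the filter on low counts the test covered 9 of the 10 members in Caco-2 and 8 of them in HT-29. VEGFC was tested in neither line and PDGFRB was not tested in HT-29. Replicate 1 of CoCl2 and replicate 1 of OD stood apart from the other libraries of their Caco-2 groups, where the chi-square of paired counts, divided by its degrees of freedom, was 8.79 to 12.6, against 1.96 to 6.10 in all other pairs of replicates. Without both libraries the same number of members was called in the Caco-2 comparisons, 5 for CoCl2, 2 for OD and 3 for CoCl2 against OD. Among genes long used as readouts of HIF activity, chosen with earlier results of these libraries known, 9 of 9 tested rose with CoCl2 in Caco-2, 8 of 9 with OD in Caco-2, 9 of 10 with CoCl2 in HT-29 and 5 of 10 with OD in HT-29, against 9.13%, 4.43%, 17.4% and 9.5% of all genes. NDRG1, a stress-response gene, was called higher in all 4 comparisons with control.

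HIF binds DNA at a short core, ACGTG or GCGTG, and the 250 bases before the RefSeq start were searched for both on either strand. RefSeq windows were matched for 8 of the 10 members, not for VEGFA or PDGFB. Each of the 8 held exactly 1 match, including VEGFC, which had no counts, and VEGFB, which was not called in Caco-2. Of all 35116 such windows, 43.2% held a match (18.5% ACGTG and 32.2% GCGTG). That share is not matched for base content, and the members' windows held from 49.2% (EDN1) to 82.8% (VEGFB) G or C. PGF, EDN1 and PDGFA had 2, 3 and 4 windows, of which the 1 nearest the gene's outer start was used. Whether the members differ from other genes in this was not tested. The windows of 4 members are shown because these genes had the largest changes below, in different directions: with CoCl2, ADM and ANGPTL4 rose in both lines, PDGFRB fell in Caco-2, and EDN1 rose in Caco-2 and fell in HT-29. They are read 5′ to 3′ on the gene's strand from GRCh38.p14 (RefSeq). Capitals mark the match, which on the opposite strand reads CACGT for ACGTG and CACGC for GCGTG. A match is a run of letters, not a shown binding site.

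ADM (chr11:10304823-10305072, plus strand): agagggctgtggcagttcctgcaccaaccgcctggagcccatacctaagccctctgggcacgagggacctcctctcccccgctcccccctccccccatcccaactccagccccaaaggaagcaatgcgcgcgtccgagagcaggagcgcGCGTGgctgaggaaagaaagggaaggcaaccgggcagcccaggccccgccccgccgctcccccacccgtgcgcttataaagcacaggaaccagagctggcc

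ANGPTL4 (chr19:8363905-8364154, plus strand): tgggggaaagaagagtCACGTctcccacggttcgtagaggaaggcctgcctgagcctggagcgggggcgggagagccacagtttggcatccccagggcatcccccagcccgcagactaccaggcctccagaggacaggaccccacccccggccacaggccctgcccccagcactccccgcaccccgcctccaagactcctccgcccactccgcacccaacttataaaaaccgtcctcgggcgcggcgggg

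EDN1 (chr6:12290111-12290360, plus strand): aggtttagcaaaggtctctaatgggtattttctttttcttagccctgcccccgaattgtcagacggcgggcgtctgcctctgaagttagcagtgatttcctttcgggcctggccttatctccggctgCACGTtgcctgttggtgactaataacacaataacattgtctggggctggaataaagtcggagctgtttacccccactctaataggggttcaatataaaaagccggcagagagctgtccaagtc

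PDGFRB (chr5:150155846-150156095, minus strand): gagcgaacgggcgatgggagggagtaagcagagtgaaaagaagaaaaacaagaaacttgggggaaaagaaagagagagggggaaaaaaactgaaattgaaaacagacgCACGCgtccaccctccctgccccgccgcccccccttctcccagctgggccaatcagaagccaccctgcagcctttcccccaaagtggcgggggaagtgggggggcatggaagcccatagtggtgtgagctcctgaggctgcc

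The match lay 101 to 97 bases before the start in ADM, as GCGTG on the gene's own strand. In ANGPTL4 it lay 234 to 230 bases before the start, as ACGTG on the opposite strand. EDN1 held ACGTG on the opposite strand 123 to 119 bases before the start, and PDGFRB held GCGTG on the opposite strand 142 to 138 bases before it. None of these matches was part of the palindrome CACGTG. The window of EDN1 thus held the same core on the same strand as that of ANGPTL4. In VEGFB, PGF, PDGFA and VEGFC the match was GCGTG, 61, 162, 186 and 59 bases before the start at its far end. The RefSeq start used for ANGPTL4 lay 866 bases from the gene's outer start in GENCODE release 44, that for PDGFRB 27 bases, and those for ADM and EDN1 at it.

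**Figure D1:**
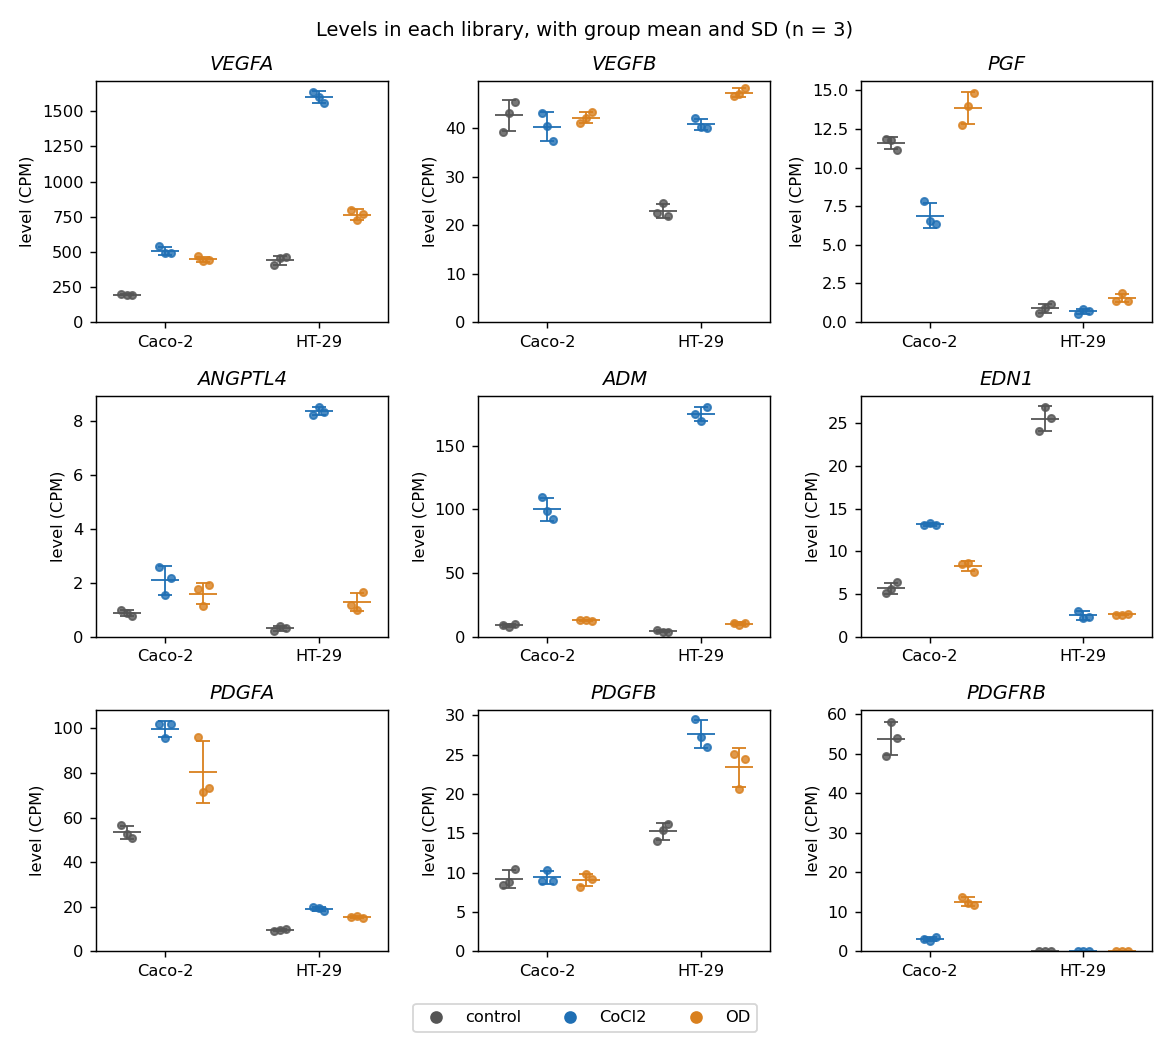
Levels of 9 members in CPM (linear axis from 0) in the 18 libraries, by cell line and treatment. Points are libraries, the horizontal mark is the group mean and the bar the SD (n = 3), and VEGFC is left out because it had 0 counts in every library. EDN1 was higher in treated than in control Caco-2 libraries and lower in treated than in control HT-29 libraries, and PDGFRB was near 0 in all HT-29 libraries.

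VEGFA, the main growth factor for blood vessels (chromosome 6, 43770184 to 43786487, plus strand, GRCh38), was higher after both treatments in both lines. In Caco-2 controls it stood at 197, 194 and 190.5 CPM, with CoCl2 at 539.8, 490.2 and 490.2, and with OD at 469, 431 and 443. All treated libraries lay above all controls, and every CoCl2 library lay above every OD library. VEGFA rose with CoCl2 (log2 fold change 1.39 ± 0.07 SE, edgeR FDR = 2.84e-14) and with OD (1.21 ± 0.07, FDR = 1.11e-12). In HT-29 the controls were at 403, 454 and 461 CPM, CoCl2 at 1640.0, 1604 and 1555, and OD at 799, 725 and 771, again with no overlap between groups. There it rose with CoCl2 (log2 fold change 1.86 ± 0.05, edgeR FDR = 5.04e-22), and with OD the log2 fold change was 0.80 ± 0.05 (FDR = 1.23e-13), inside the fold limit. A lncRNA, ENSG00000272114, overlaps VEGFA on the opposite strand, and since the use of strand in counting is not given in the sources used here, their reads may not be told apart.

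VEGFB, a ligand linked to heart and fat tissue (chromosome 11, 64234584 to 64239264, plus strand), was flat in Caco-2 and higher after treatment in HT-29. The 9 Caco-2 libraries ran from 37.4 to 45.5 CPM, and the 3 groups overlapped. Its log2 fold change in Caco-2 was -0.08 with a 95% interval from -0.27 to 0.10 for CoCl2, and -0.01 from -0.20 to 0.17 for OD. In HT-29 the controls were at 22.5, 24.6 and 21.9 CPM, CoCl2 at 42.1, 40.2 and 40.2, and OD at 46.6, 47.0 and 48.4. VEGFB rose with OD (log2 fold change 1.05 ± 0.06, edgeR FDR = 2.13e-14), while for CoCl2 the value was 0.83 ± 0.06 (FDR = 2.62e-12), inside the fold limit. In HT-29 every OD library lay above every CoCl2 library, and every CoCl2 library above every control. On library size alone, without TMM, the OD value was 0.91.

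PGF, placental growth factor (chromosome 14, 74941834 to 74955626, minus strand), had its CoCl2 and OD levels on opposite sides of control. In Caco-2 it stood at 11.9, 11.8 and 11.1 CPM in controls, 7.83, 6.54 and 6.33 with CoCl2 and 12.8, 14.0 and 14.8 with OD, so that the CoCl2 libraries were lowest and the OD libraries highest. Neither difference from control was called: the log2 fold change was -0.76 ± 0.14 for CoCl2 (edgeR FDR = 3.99e-05) and 0.25 ± 0.13 for OD (FDR = 0.0997). HT-29 held 7 to 32 counts per library, and the values there were -0.42 ± 0.34 for CoCl2 and 0.71 ± 0.27 for OD. On library size alone the CoCl2 values passed both limits, at -1.08 in Caco-2 and -1.04 in HT-29.

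VEGFC, the lymphatic growth factor (chromosome 4, 176683538 to 176792922, minus strand), had 0 counts in all 18 libraries, which allows a level of up to 0.112 to 0.250 CPM depending on the library (3 counts each, counting error only).

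ADM (chromosome 11, 10305073 to 10307397, plus strand) had the largest rise among the members in both lines with CoCl2, and its values with OD were much smaller. Caco-2 controls stood at 9.02, 7.91 and 10.0 CPM, CoCl2 at 109.8, 98.5 and 92.1, and OD at 13.3, 13.1 and 12.6. The CoCl2 rise was 11.1-fold (log2 fold change 3.47 ± 0.11, edgeR FDR = 1.07e-18), the 70th largest of 16034 genes, and the OD value was 0.53 ± 0.12 (FDR = 0.000587), inside the fold limit although no OD library overlapped a control. HT-29 controls stood at 5.16, 3.72 and 3.64 CPM, CoCl2 at 174, 169 and 180.3, and OD at 10.9, 9.25 and 10.8. ADM rose 42.8-fold with CoCl2 (log2 fold change 5.42 ± 0.08, edgeR FDR = 2.16e-27), the 42nd largest of 15812 genes, and also rose with OD (1.34 ± 0.11, FDR = 6.18e-11). ADM was thus the member in which the 2 treatments differed most within a line.

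EDN1 (chromosome 6, 12290361 to 12297194, plus strand) rose in Caco-2 with CoCl2 and fell in HT-29 with both treatments. In Caco-2 the controls stood at 5.12, 5.57 and 6.37 CPM, CoCl2 at 13.08, 13.4 and 13.03, and OD at 8.54, 8.65 and 7.55, with no overlap between groups. EDN1 rose with CoCl2 (log2 fold change 1.21 ± 0.14, edgeR FDR = 6.30e-08), and for OD the value was 0.54 ± 0.15 (FDR = 0.00366). In HT-29 the controls stood at 24.1, 27.0 and 25.6 CPM, CoCl2 at 3.06, 2.14 and 2.30, and OD at 2.54, 2.56 and 2.71. It fell 10.2-fold with CoCl2 (log2 fold change -3.35 ± 0.12, edgeR FDR = 3.11e-19) and 9.80-fold with OD (-3.29 ± 0.11, FDR = 3.81e-19), the 28th largest fall of 15812 genes with OD. On library size alone the Caco-2 value for CoCl2 was 0.89, inside the fold limit.

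ANGPTL4 (chromosome 19, 8363289 to 8374370, plus strand) was a low-count gene that rose most in HT-29 with CoCl2. Caco-2 controls held 17, 13 and 11 counts, CoCl2 31, 21 and 40, and OD 26, 19 and 27, and on the CPM scale both treated groups lay above the controls. It rose with CoCl2 (log2 fold change 1.24 ± 0.34, edgeR FDR = 0.00259), and the OD value was 0.85 ± 0.35 (FDR = 0.0464). HT-29 controls held 3, 7 and 9 counts, CoCl2 110, 123 and 101, and OD 23, 17 and 31. ANGPTL4 rose 26.0-fold with CoCl2 (log2 fold change 4.70 ± 0.23, edgeR FDR = 2.03e-16) and also rose with OD (2.01 ± 0.33, FDR = 6.08e-06). In HT-29 the gene passed the filter through its treated libraries, so its calls against control there rest on the groups where it was high. On library size alone the Caco-2 value for CoCl2 was 0.92, inside the fold limit.

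Of the PDGF ligands, PDGFA (chromosome 7, 497258 to 520296, minus strand) had a higher level after treatment in both lines, inside the fold limit with all libraries. In Caco-2 it stood at 56.6, 52.5 and 50.8 CPM in controls, 102, 95.5 and 102 with CoCl2, and 96.3, 71.5 and 73.2 with OD, where replicate 1 was well above the others. Its log2 fold changes were 0.90 ± 0.10 for CoCl2 (edgeR FDR = 1.31e-08) and 0.59 ± 0.10 for OD (FDR = 1.71e-05), and without replicate 1 of both treatments the OD value was 0.44. In HT-29 controls stood at 9.10, 9.62 and 9.95 CPM, CoCl2 at 19.9, 19.4 and 17.9, and OD at 15.3, 15.8 and 14.95, with log2 fold changes of 0.99 ± 0.09 and 0.67 ± 0.09. The CoCl2 value in HT-29 passed both limits without replicate 3 of CoCl2 (1.03) or replicate 3 of the controls (1.02). No control library overlapped a treated one in either line.

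PDGFB (chromosome 22, 39223359 to 39244982, minus strand) was flat in Caco-2, where the 9 libraries ran from 8.21 to 10.52 CPM. Its 95% intervals there ran from -0.27 to 0.32 for CoCl2 and from -0.32 to 0.27 for OD. In HT-29 the controls stood at 14.1, 15.4 and 16.2 CPM, CoCl2 at 29.6, 27.2 and 26.0, and OD at 25.1, 20.6 and 24.4. The log2 fold changes were 0.85 ± 0.09 (edgeR FDR = 7.38e-10) and 0.61 ± 0.08 (FDR = 3.56e-07), both inside the fold limit, although no control overlapped a treated library. The lncRNA ENSG00000284633 overlaps PDGFB on the opposite strand.

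The receptor gene PDGFRB (chromosome 5, 150113839 to 150155872, minus strand) fell in Caco-2 and was close to absent in HT-29. Caco-2 controls stood at 49.5, 58.1 and 54.0 CPM, CoCl2 at 3.08, 2.54 and 3.68, and OD at 13.8, 12.3 and 11.6, with no overlap between any groups. The fall was 17.1-fold with CoCl2 (log2 fold change -4.09 ± 0.14, edgeR FDR = 6.23e-18), the 29th largest of 16034 genes, and 4.28-fold with OD (-2.10 ± 0.11, FDR = 1.73e-13). The 9 HT-29 libraries held 0 to 3 counts each, so no fold is given there. PDGFRB is best known from fibroblasts and pericytes, and 10 marker genes of those cells summed to 38.6 to 40.4 CPM in Caco-2 controls, 33.0 to 33.7 with CoCl2 and 27.6 to 33.0 with OD, with 5 of the 10 never over 3 counts in a library. In HT-29 the same markers summed to 4.03 to 8.94 CPM and COL1A2 was at 0. In bulk samples fewer cells of a type and less RNA per cell cannot be told apart, and the part of these markers in the fall was not tested.

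VEGFA, ADM, EDN1, ANGPTL4, VEGFB and PDGFRB made up all calls of members against control. With CoCl2 in Caco-2, 5 of 9 members were called, where 23.4% of all 16034 genes tested were called: VEGFA, ANGPTL4, ADM and EDN1 were higher (9.13% of all genes) and PDGFRB was lower (14.2%). With OD in Caco-2, 2 of 9 were called, against 11.7% of all genes: VEGFA was higher (4.43% of all genes) and PDGFRB lower (7.27%). With CoCl2 in HT-29, 4 of 8 were called, which is near the 41.3% of all 15812 genes called there: VEGFA, ANGPTL4 and ADM were higher (17.4%) and EDN1 was lower (23.9%). With OD in HT-29, 4 of 8 were called, against 17.1%: VEGFB, ANGPTL4 and ADM were higher (9.5%) and EDN1 was lower (7.57%). ANGPTL4 entered both HT-29 counts only through its treated libraries, where it was high. On the deposited log2(RPKM + 1) scale, tested with limma-trend at the same limits, 3, 2, 3 and 1 members were called in these 4 comparisons. Of all genes, 1098, 381, 2520 and 744 were called on that scale, against 3747, 1876, 6524 and 2699 with edgeR. ANGPTL4 and PGF could not be tested on that scale in HT-29, where the deposited values list them at 0. The median log2 fold change of the members tested was 0.90, 0.53, 0.92 and 0.76 in these 4 comparisons, against -0.03, -0.02, -0.03 and 0.01 over all genes. The comparisons of a line share their 3 control libraries, so the values of CoCl2 and OD are not independent of each other.

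**Figure D2:**
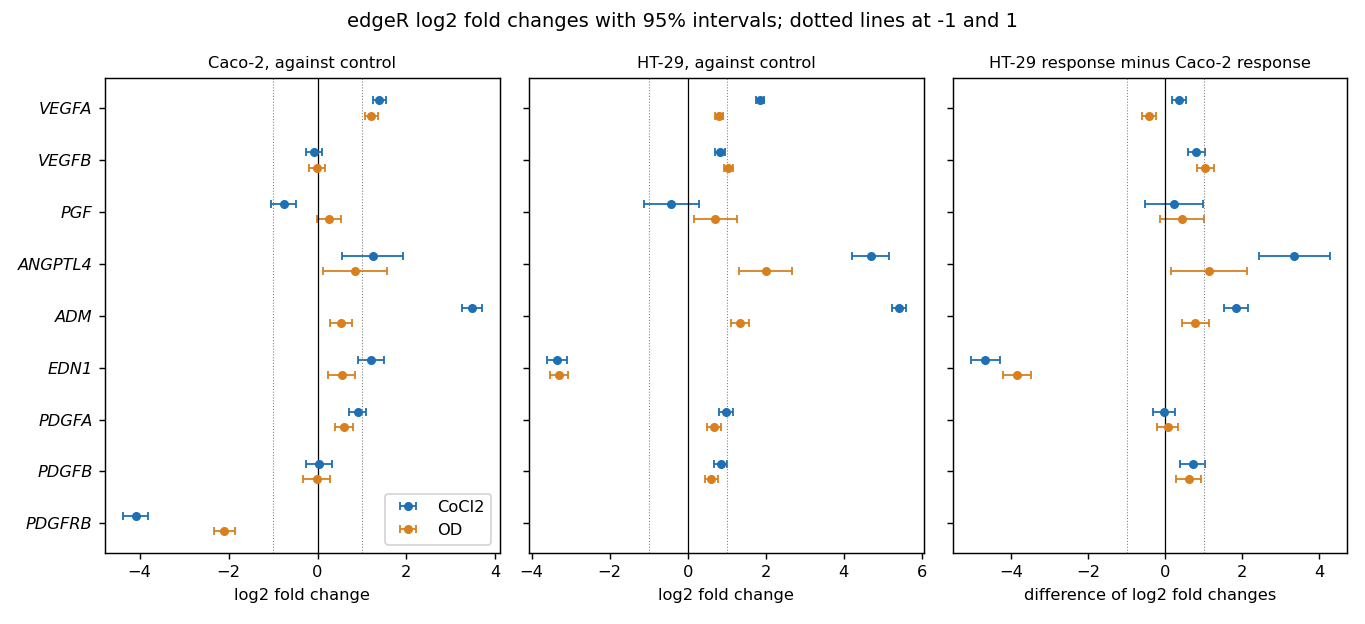
edgeR log2 fold changes with 95% intervals in Caco-2 and HT-29 (left and middle) and the difference of log2 fold changes, HT-29 minus Caco-2 (right), for CoCl2 and OD. Dotted lines mark the fold limits, and PDGFRB is drawn for Caco-2 alone. EDN1 was at -3.35 and -3.29 in HT-29 against 1.21 and 0.54 in Caco-2, and ADM with CoCl2 was at 5.42 and 3.47.

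When CoCl2 was compared with OD directly, ADM stood out in both lines. The 2 agents were given at different concentrations, so these values compare the treatments as applied. In Caco-2, 3 of 9 members were called, against 11.7% of all genes (5.21% higher and 6.44% lower with CoCl2): ADM was higher with CoCl2 (log2 fold change 2.94 ± 0.10, edgeR FDR = 6.54e-17), and PDGFRB (-1.997 ± 0.15, FDR = 1.28e-10) and PGF (-1.02 ± 0.14, FDR = 1.30e-06) were lower. VEGFA differed little, at 0.18 with a 95% interval from 0.03 to 0.32. In HT-29, 4 of 8 were called, against 29.9% of all genes (10.8% higher and 19.2% lower with CoCl2): ADM (4.08 ± 0.07, edgeR FDR = 1.72e-25), ANGPTL4 (2.695 ± 0.18, FDR = 2.21e-13) and VEGFA (1.06 ± 0.05, FDR = 1.32e-16) were higher with CoCl2, and PGF was lower (-1.13 ± 0.32, FDR = 0.00225). For EDN1 in HT-29 the difference between the agents was -0.06, with an interval from -0.43 to 0.32. The call of PGF was lost without replicate 2 or 3 of CoCl2 or replicate 3 of OD in Caco-2 (-0.98, -0.95 and -0.97), and without replicate 1 of CoCl2 or replicate 2 of OD in HT-29 (-0.95 and -0.99). The call of VEGFA in HT-29 was lost on library size alone, at 0.57, and with all 18 libraries in 1 fit, at 0.97.

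The response differed between the lines for 3 of 9 members with CoCl2, against 21.6% of 17921 genes (7.79% higher and 13.8% lower in HT-29), and for 2 of 9 with OD, against 15.2% (8.96% and 6.24%). The difference was tested as an interaction over all 18 libraries and is given as HT-29 minus Caco-2. EDN1 had by far the largest, -4.67 ± 0.19 for CoCl2 (edgeR FDR = 1.62e-20) and -3.85 ± 0.18 for OD (FDR = 7.65e-18). With CoCl2, ANGPTL4 (3.36 ± 0.45, edgeR FDR = 1.17e-07) and ADM (1.83 ± 0.15, FDR = 3.41e-12) responded more strongly in HT-29. With OD the other member called was VEGFB (1.04 ± 0.11, edgeR FDR = 6.37e-10), which was inside the fold limit without replicate 3 of the Caco-2 controls (0.99). VEGFA leaned to HT-29 with CoCl2 (0.37, 95% interval 0.19 to 0.55) and to Caco-2 with OD (-0.43, -0.61 to -0.24). For PDGFA the intervals of the difference ran from -0.31 to 0.26 for CoCl2 and from -0.21 to 0.34 for OD. Without replicate 1 of both Caco-2 treatments, 5 members were called for CoCl2, with VEGFB at 1.02 and PDGFRB, which has 0 to 3 counts in HT-29, added.

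The lines already differed in most members before treatment. In control cells 7 of 9 members were called, against 45.8% of all 17921 genes (24.2% higher and 21.6% lower in Caco-2), with line and culture state inseparable as above. Higher in Caco-2 were PDGFA (log2 difference 2.38 ± 0.10, edgeR FDR = 2.31e-21), PGF (3.53 ± 0.18, FDR = 1.52e-18), ANGPTL4 (1.38 ± 0.40, FDR = 0.00226), ADM (1.05 ± 0.13, FDR = 1.05e-08) and PDGFRB. For PDGFRB the 3 Caco-2 controls held 2497 counts and the 3 HT-29 controls 4, a ratio of 760.5 after scaling for depth (95% counting interval 297 to 2793). Higher in HT-29 were EDN1 (-2.26 ± 0.11, edgeR FDR = 6.77e-19) and VEGFA (-1.27 ± 0.07, FDR = 1.09e-18). EDN1 thus started at 25.5 ± 1.44 CPM in HT-29 and 5.69 ± 0.632 in Caco-2, and after CoCl2 the order was turned, at 2.50 ± 0.490 and 13.2 ± 0.181. The call of ADM was lost without replicate 3 of the Caco-2 controls (0.96) or without replicate 2 or 3 of the HT-29 controls (0.98 and 0.94).

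Levels of different genes can be set against each other only per length, and the deposited log2 values, which hold RPKM, allow this. On that scale VEGFB was highest in Caco-2 controls (28.2 ± 2.04 RPKM), ahead of VEGFA (13.7 ± 0.248) and PDGFA (13.1 ± 0.740), whose ranges overlapped, then PDGFRB (7.70), ADM (3.95), EDN1 and PDGFB (2.85 and 2.36, overlapping), PGF (2.04) and ANGPTL4 (0.360). With CoCl2 the order became ADM (42.8 ± 3.98), VEGFA (34.9 ± 2.09), VEGFB and PDGFA (25.9 and 23.9, overlapping) and EDN1 (6.42), with PDGFRB last (0.432). With OD it was VEGFA (30.9), VEGFB (27.2) and PDGFA (19.3), with ADM next (5.56). HT-29 controls ran from VEGFA (31.4 ± 2.26) through VEGFB (15.3), EDN1 (12.9) and PDGFB (3.93) to PDGFA and ADM (2.37 and 1.85, overlapping). With CoCl2 in HT-29, VEGFA reached 107 ± 2.73 and ADM 72.6 ± 2.61 RPKM, and EDN1 became the lowest of the 6 listed members (1.19), as it also did with OD (1.30). PGF, ANGPTL4 and PDGFRB are listed at 0 for HT-29 in that table, where the authors' filter left them out.

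The order at the top depended on the length used. For VEGFA the deposited values and the counts gave a length of 14472 bases (Caco-2), near the 14431 bases of all its annotated exons in GENCODE release 44, against 3609 bases for its canonical transcript. For VEGFB and PDGFA that length was 1549 and 4163 bases, shorter than the exons of that release (1970 and 4588). With canonical lengths, an alternative chosen after seeing the data, VEGFA was first in Caco-2 controls at 53.7 ± 0.912 RPKM, ahead of VEGFB at 23.6 ± 1.74 and PDGFA at 19.4 ± 1.08, and PGF (6.67 ± 0.231) and ADM (6.03 ± 0.712) had overlapping ranges. In HT-29 controls VEGFA stood at 122 ± 8.74 RPKM, VEGFB at 12.7 ± 0.769 and EDN1 at 12.6 ± 0.709, the last 2 with overlapping ranges.

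**Figure D3:**
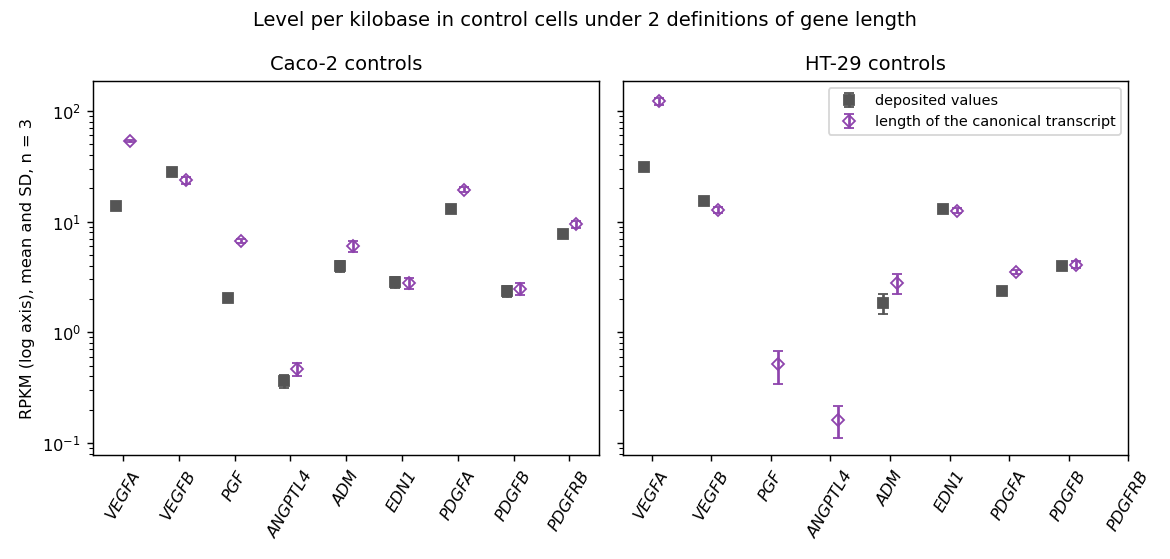
Level per kilobase (RPKM, log axis) of the members in control cells of each line, as mean and SD of 3 libraries, with the deposited values (squares) and with the length of the canonical transcript (diamonds). PGF and ANGPTL4 have no deposited value in HT-29, and PDGFRB is not drawn there. VEGFA moved from 13.7 to 53.7 RPKM in Caco-2 and from 31.4 to 122 in HT-29, while EDN1 and PDGFB hardly moved.

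The genes whose log2 CPM across the 18 libraries followed each member most closely were named by Pearson's r, after the control mean of each line was subtracted, among 10435 or 10436 genes with a mean of at least 100 counts. The points share libraries and groups, so these are descriptions, and not every one of the closest genes is named. For VEGFA they included PGK1, an enzyme of glycolysis (r = 0.996) and MEF2D, a transcription factor (0.994). For ADM they included HMOX1, heme oxygenase 1 (0.993) and UFD1 (0.993). EDN1 was followed by PRR11 (0.993), CDCA8, a subunit of the chromosomal passenger complex (0.988), and ZNF551 (0.987). ANGPTL4 had MKNK2 (0.990), PGPEP1 (0.987) and PI4K2A (0.985), and VEGFB had MFGE8 (0.981), HYOU1, a chaperone of the endoplasmic reticulum (0.980), and AP3D1 (0.979). PDGFA was followed by DENND5A (0.980), PDGFB by FICD (0.963), and PGF, whose best value was the lowest, by LAMP3 (0.920).

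Other genes of the same systems were taken from lists drawn up with earlier results of these data known, and their counts and medians are a description. Receptors for the VEGF family were scarce: FLT1, KDR and FLT4 never exceeded 9, 8 and 4 counts in a library, and of the 5 genes of that list only the co-receptors NRP1 and NRP2 were tested. Against control, NRP2 was called with OD in HT-29 and in no other comparison, from 1, 0 and 6 counts in controls to 36, 14 and 23 (log2 fold change 3.43 ± 0.52, edgeR FDR = 1.95e-06), while in Caco-2 it stood at 660 to 838 counts in controls. In HT-29 NRP2 passed the filter through its OD libraries alone, so its call there rests on the group where it was high. VEGFD, the second lymphatic ligand, held 1, 1 and 0 counts in Caco-2 controls, 16, 28 and 32 with CoCl2 and 8, 7 and 4 with OD, and was called higher with both. VEGFD passed the filter in Caco-2 through its CoCl2 libraries alone, so these calls carry the same limit. In HT-29, where it missed the filter, it held 1, 1 and 0 counts in controls, 19, 22 and 9 with CoCl2, and 3, 7 and 4 with OD.

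The adrenomedullin system list held 10 genes, of which the test covered 6 (Caco-2) and 4 (HT-29), and those called with CoCl2 were all lower (RAMP1 and ADM5 in Caco-2, RAMP1 and ADM2 in HT-29), where ADM itself rose. Of all genes, 14.2% (Caco-2) and 23.9% (HT-29) were lower with CoCl2. PAM, the enzyme that amidates adrenomedullin to its active form, rose with OD in Caco-2, from 98.0 ± 4.21 to 444 ± 33.8 CPM (log2 fold change 2.18 ± 0.08, edgeR FDR = 4.31e-17), and stood at 173 ± 4.71 CPM with CoCl2. PAM with OD differed between the lines (-1.82 ± 0.09, edgeR FDR = 9.82e-18). RAMP1, a receptor partner, fell with CoCl2 in both lines (-1.50 ± 0.41 in Caco-2, -1.03 ± 0.22 in HT-29, edgeR FDR = 0.00284 and 0.000138) and with OD in HT-29 (-1.47 ± 0.22, FDR = 1.33e-06), at 5 to 74 counts per library. The receptor gene CALCRL never exceeded 6 counts. ADM2, a related peptide whose gene overlaps SBF1 on the opposite strand, fell with CoCl2 in HT-29 (-1.52 ± 0.07, FDR = 9.26e-17), opposite to ADM.

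Of 8 other endothelin genes the test covered 3 in Caco-2 and 1 in HT-29. ECE1, which cuts the endothelin precursor to its active form, rose with OD in HT-29, from 157 ± 5.08 to 321 ± 16.4 CPM (log2 fold change 1.04 ± 0.05, edgeR FDR = 2.10e-16), where EDN1 itself fell. EDN3, another endothelin, fell with CoCl2 in Caco-2 (-1.33 ± 0.30, edgeR FDR = 0.000421), where EDN1 rose. Of the 5 other PDGF genes the test covered 4 (Caco-2) and 2 (HT-29), and both edgeR and DESeq2 called 0 of them against control in either line. At an unadjusted p under 0.05, edgeR gave 2 of 4 for CoCl2 and 2 of 4 for OD in Caco-2, and 2 of 2 for CoCl2 and 1 of 2 for OD in HT-29. With the FDR limit alone, a stricter rule, 10370 (CoCl2) and 8084 (OD) of all 16034 genes passed in Caco-2. In HT-29 13097 and 10876 of 15812 did. PDGFA and PDGFB were not called either, so PDGFRB, which was tested in Caco-2 alone, was the sole gene of that system called against control.

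Among the 5 genes of the angiopoietin system, of which the test covered 1 (Caco-2) and 3 (HT-29), every call against control was lower. Of all genes, 23.9% were lower with CoCl2 in HT-29, 7.57% with OD in HT-29 and 7.27% with OD in Caco-2. TEK, the angiopoietin receptor, held 30, 26 and 42 counts in HT-29 controls, 0, 1 and 0 with CoCl2 and 9, 6 and 9 with OD, and was called lower with both. In HT-29 TEK passed the filter through its control libraries alone, so its calls there rest on the group where it was high. ANGPT1, a ligand of TEK, fell with CoCl2 in HT-29 (-1.33 ± 0.16, edgeR FDR = 1.65e-08) and with OD in Caco-2, where it held 0 to 24 counts (-1.68 ± 0.58, FDR = 0.0175). ANGPT4 held 10, 10 and 17 counts in HT-29 controls and 2, 5 and 1 with CoCl2, where it was called lower. With OD in HT-29 it held 21, 15 and 23 counts and was not called.

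**Figure D4:**
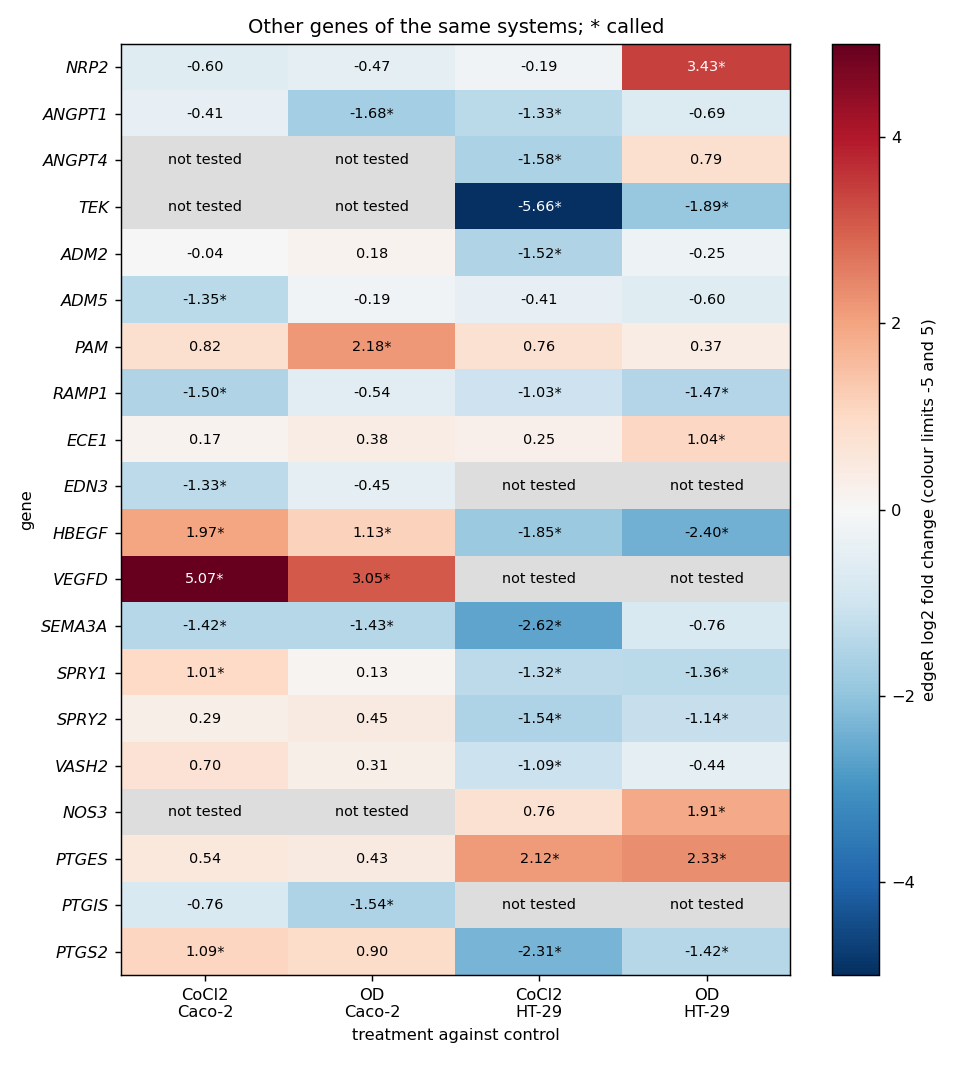
edgeR log2 fold changes against control of the other genes of the same systems that were named by rule, in both lines and with both treatments. An asterisk marks a call, grey cells were not tested, and the values of TEK with CoCl2 and of VEGFD rest on a group with at most 1 count per library. HBEGF and PTGS2 were above 0 in both Caco-2 columns and below 0 in both HT-29 columns.

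HBEGF, PTGS2 and SPRY1 rose with CoCl2 in Caco-2 and fell with it in HT-29, as EDN1 did. They are grouped here for this pattern, and the share of all genes called in opposite directions in the 2 lines is not given. In Caco-2 the values of PTGS2 and SPRY1 lay only just over the fold limit. HBEGF, a heparin-binding growth factor, stood at 3.29 ± 0.433 CPM in Caco-2 controls and rose to 12.99 ± 2.03 (CoCl2) and 7.24 ± 2.30 (OD). In HT-29 it fell from 81.6 ± 13.8 to 22.8 ± 1.48 (CoCl2) and 15.6 ± 2.93 (OD). Its line difference was -3.92 ± 0.24 for CoCl2 and -3.54 ± 0.25 for OD (edgeR FDR = 1.28e-15 and 1.75e-13). PTGS2, the inducible cyclooxygenase that makes the prostanoid precursor, was at 1.37 ± 0.183 CPM in Caco-2 controls and 2.87 ± 0.563 with CoCl2 (1.09 ± 0.29, edgeR FDR = 0.0021), and fell in HT-29 from 40.7 ± 2.37 to 8.24 ± 0.248 (CoCl2) and 15.2 ± 1.74 (OD). Its line difference was -3.51 ± 0.27 for CoCl2 and -2.34 ± 0.26 for OD (edgeR FDR = 4.08e-13 and 5.59e-09). SPRY1, a feedback inhibitor of receptor tyrosine kinase signalling, rose with CoCl2 in Caco-2 (1.01 ± 0.12, edgeR FDR = 1.66e-07) and fell with both agents in HT-29 (-1.32 ± 0.07 and -1.36 ± 0.07). In these 3 genes and in EDN1 the control level was higher in HT-29. PACERR, a lncRNA, overlaps PTGS2 on the opposite strand.

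Of 11 genes listed as inhibitors of angiogenesis the test covered 9 in Caco-2 and 8 in HT-29. The list was written from general knowledge, and VASH2 in it is not an established inhibitor. SEMA3A, a semaphorin that repels endothelial cells, fell in 3 of the 4 comparisons, from 45.0 ± 3.07 to 16.7 ± 1.69 CPM with CoCl2 in Caco-2 and from 33.4 ± 3.56 to 5.43 ± 0.821 with CoCl2 in HT-29. With CoCl2 in HT-29, 4 of the 8 tested were called, all lower (VASH2, SPRY1, SEMA3A and SPRY2). This is near the 41.3% of all genes called there (23.9% lower). The list's median log2 fold change, VASH2 included, was -0.87, against -0.03 over all genes. Of the enzymes of nitric oxide and prostanoids, PTGES, which makes prostaglandin E, rose in HT-29 with CoCl2 (2.12 ± 0.26, edgeR FDR = 2.75e-08) and OD (2.33 ± 0.24, FDR = 2.18e-09). PTGES never exceeded 70 counts in any of the 18 libraries, so both values rest on low counts. NOS3, the endothelial nitric oxide synthase, whose gene overlaps ATG9B on the opposite strand, rose with OD in HT-29 from 2.13 ± 0.570 to 8.22 ± 0.439 CPM (1.91 ± 0.15, edgeR FDR = 2.12e-11). PTGIS, prostacyclin synthase, fell with OD in Caco-2 from 17.8 ± 1.62 to 6.10 ± 0.160 CPM (-1.54 ± 0.14, edgeR FDR = 1.42e-09) and was at 0 or 1 count in HT-29.

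Markers of gut epithelium (8 genes, led by CDH1 in Caco-2 and KRT8 in HT-29) summed to 4650 to 7984 CPM in the 18 libraries. Not all of them were present or steady. Caco-2 libraries held only 0 to 2 counts of CDX1. VIL1, CDX1 and CDX2 fell with CoCl2 in HT-29, VIL1 from 205 ± 3.00 to 33.6 ± 2.96 CPM. VIL1 also fell there with OD. Others rose: KRT8 and KRT18 with CoCl2 in Caco-2, KRT20 with OD in both lines and with CoCl2 in HT-29. The list's median log2 fold change against control was 0.77 (CoCl2) and 0.42 (OD) for Caco-2. For HT-29 it was 0.24 (CoCl2) and 0.15 (OD). Endothelial markers summed to 21.1 to 33.0 CPM in Caco-2 and 24.7 to 60.3 in HT-29, led by EGFL7 in Caco-2 and ESAM in HT-29, with ERG at 0 in all 18 libraries and CDH5 at no more than 3 counts. PECAM1, another of them, stood at 8.84 ± 2.38 CPM in Caco-2 controls and 1.68 ± 0.459 in HT-29 controls, and fell with CoCl2 in both lines (log2 fold changes -2.15 ± 0.22 and -2.001 ± 0.35, edgeR FDR = 6.91e-09 and 1.12e-05). The other endothelial markers went both ways. In Caco-2, ESAM was called higher and VWF lower with both treatments. In HT-29, EGFL7 was called higher with both treatments and ESAM lower with CoCl2. Leukocyte markers summed to 3.53 to 22.6 CPM, highest with OD in HT-29, where ITGAM led and PTPRC, the pan-leukocyte marker, never exceeded 2 counts. The part of these markers in the members' levels was not tested.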

How the data were processed

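Poly(A) RNA was sequenced as single-end reads of 75 nt, in 3 libraries for each line and treatment. Per the study's methods, which describe Caco-2, and the submitters' processing notes, adapters were trimmed with cutadapt 2.10 and reads aligned with STAR 2.7.5b to GRCh38 with GENCODE release 34. The counting tool and its use of strand are not given in the sources used here. The authors deposited raw counts per gene, and a table of log2 values that hold log2(RPKM + 1), where in 100% of the genes with at least 20 counts in every library (12102 in Caco-2, 11367 in HT-29) the implied gene length was constant within 1%. Genes that failed the authors' filter in a line stand at 0 there.

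Counts were tested with edgeR 4.0.16 in R 4.3.3 (filterByExpr, TMM, quasi-likelihood F test, two-sided, Benjamini-Hochberg), per line over 9 libraries. Differences between the lines used all 18 libraries in 1 fit of 6 groups. DESeq2 1.42.0, limma-trend 3.58.1 on the deposited log2 values, other scalings and filters, and leaving out each library were alternatives. The fits were tested on simulated counts. Members and gene lists were chosen with earlier results of these data known. Of each other list, up to 4 genes called in a treatment comparison were eligible to be named, those with the largest absolute log2 fold change, beside genes whose low counts are given, and likewise the 3 genes most like each member by Pearson's r. A few genes that this rule would name are not reported here. Gene coordinates are from GENCODE release 44 on GRCh38, and windows before gene starts from RefSeq on GRCh38.p14. Intervals and limits on single counts cover counting error only. MicroRNA libraries were not used here.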

Additional observations from a re-analysis of the deposited data

Results flagged for a closer look

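Between the lines, 5 differences in the response of a member passed both limits in the interaction test over all 18 libraries. They came from 3 of 9 members with CoCl2, against 21.6% of all genes, and 2 of 9 with OD, against 15.2%. With CoCl2, the log2 fold change of EDN1 in HT-29 minus that in Caco-2 was -4.67 (edgeR FDR = 1.62e-20), that of ANGPTL4 was higher by 3.36 (FDR = 1.17e-07), and that of ADM was higher by 1.83 (FDR = 3.41e-12). With OD, EDN1 was again lower in HT-29 (-3.85, edgeR FDR = 7.65e-18) and VEGFB was higher by 1.04 (FDR = 6.37e-10). For EDN1 the 3 treated libraries of each treatment lay above all Caco-2 controls and below all HT-29 controls. ANGPTL4 rests on 3 to 9 counts per HT-29 control library. With RLE factors or DESeq2, 4 members were called for CoCl2, with PDGFRB added, which has 0 to 3 counts in HT-29. The lines share neither culture state nor medium, and the part of these in the differences cannot be told apart from that of the line.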

How the results depend on the processing

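Over the alternatives that kept all libraries, 589 of the members' log2 fold changes kept their direction and their side of both limits, 32 newly passed (most with the FDR limit alone), 12 no longer passed and 9 turned sign. On library size alone, PDGFB was at -0.29 for CoCl2 in Caco-2, and for CoCl2 against OD at -0.12 (Caco-2) and -0.26 (HT-29, where PDGFA was at -0.18), although with TMM both were above 0 in HT-29 at an edgeR FDR of 0.0102 and 0.00129. With that scaling the median over all genes (log2 fold change) went from -0.03 to -0.35 for CoCl2 and from -0.02 to -0.18 for OD (Caco-2), and from -0.03 to -0.66 and from 0.01 to -0.13 (HT-29). Higher and lower calls were then 870 and 3546, 500 and 1644, 1295 and 6250, and 1225 and 1596, against 1464 and 2283, 711 and 1165, 2749 and 3775, and 1502 and 1197 with TMM. Limma-trend gave PDGFB -0.0062 for CoCl2 in Caco-2. With no filter, VEGFB was at 0.015 and PDGFB at 0.0072 for OD in Caco-2. The line difference of PDGFA for CoCl2 was 0.083 with RLE factors and 0.084 with DESeq2.

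With the FDR limit alone, 6 members were called for OD in Caco-2, 7 for CoCl2 and 8 for OD in HT-29, 6 (Caco-2) and 7 (HT-29) for CoCl2 against OD, and 6 and 5 for the line differences with CoCl2 and OD. All genes called then numbered 10370 (CoCl2) and 8084 (OD) for Caco-2, 13097 and 10876 for HT-29, 7957 and 12286 for CoCl2 against OD, 8916 and 7682 for the line differences and 14175 between controls. Limma-trend called 3 members for CoCl2 (Caco-2), 1 for OD (HT-29) and 1 in each line for CoCl2 against OD, and 1098, 381, 2520, 744, 341 and 1455 genes in the 6 comparisons within a line. It left 0.43 for ANGPTL4 and 0.95 for EDN1 with CoCl2 in Caco-2, and 0.95 for ADM and 0.98 for VEGFB with OD in HT-29, on the log2(RPKM + 1) scale.

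Without 1 library at a time, the line differences gave 3 to 4 members for CoCl2 and 1 to 3 for OD. PDGFB ranged from -0.040 to 0.13 for CoCl2, from -0.090 to 0.082 for OD and from -0.017 to 0.11 between them in Caco-2, VEGFB from -0.072 to 0.036 for OD in Caco-2, and EDN1 from -0.23 to 0.056 for CoCl2 against OD in HT-29. The line difference of PDGFA ranged from -0.070 to 0.015 for CoCl2 and from -0.015 to 0.21 for OD. Without replicate 1 of both Caco-2 treatments, a setting chosen after seeing the data, 5 members were called for the line difference with CoCl2, PDGFA was at 0.15 there and at 0.25 with OD, and VEGFB and PDGFB for OD in Caco-2 were at 0.0065 and 0.048.

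Replicate numbers only name the samples: over 18 pairs of same-numbered libraries the correlation of deviations from the group means ran from -0.0554 to 0.0676. With the replicate number as a block, the members called stayed 5, 2, 4 and 4 against control, and genes called were 3737, 1891, 6520 and 2700. Depth limits PGF, ANGPTL4 and PDGFRB in HT-29, where the control libraries held 9 to 31, 3 to 9 and 0 to 3 counts.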
